A study of Mus musculus with 12 samples.

Results

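The 9 genes described here encode the enzymes and partners that place, copy and remove 5-methylcytosine: Dnmt1, Dnmt3a, Dnmt3b, Dnmt3l, Uhrf1, Tet1, Tet2, Tet3 and Tdg. They were chosen by name, as 9 of 21938 protein-coding genes, and each was followed from 5 kb upstream of its annotated start to its end. These stretches hold 8156 of the 21867550 CpG sites in the deposited table. Methylation was measured by enhanced reduced representation bisulfite sequencing (eRRBS), in which bisulfite converts unmethylated cytosine and leaves methylated cytosine to be read as C. All 12 libraries came from TKO mouse embryonic stem (ES) cells, which lack Dnmt1, Dnmt3a and Dnmt3b and were grown in serum with leukemia inhibitory factor. Each line had been transfected with a human cDNA in the pPyCAGIZ vector, selected in Zeocin at 50 µg/ml and kept at 25 µg/ml. The 6 groups of 2 lines carried wild-type (WT) DNMT3A, WT DNMT3B (set a), DNMT3B N656I, a further pair of WT DNMT3B lines (set b), DNMT3B K777A or DNMT3B N779A. The WT lines of set a stand beside the DNMT3A and N656I lines and those of set b beside the K777A and N779A lines. These are derived lines, so a difference between groups includes any difference between lines in how much of the enzyme they make, and a line with the empty vector was not analysed here. With 2 lines a group, p-values between groups weigh a difference against the spread between lines, part of which is borrowed from other genes. The test of a gene's start against its body instead runs over the lines of all groups together.

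In mammals DNMT3A and DNMT3B place methyl groups on unmethylated CpG sites (de novo methylation), and DNMT3L, which has no activity of its own, binds both enzymes and stimulates them. DNMT1 copies methylation onto the new strand after replication, and UHRF1 brings it to hemimethylated CpG. TET1, TET2 and TET3 oxidise 5-methylcytosine, and TDG excises the further oxidised bases so that repair restores cytosine. In ES cells the de novo enzymes, Dnmt3l, Tet1 and Tet2 are strongly expressed, and promoters rich in CpG are usually free of methylation. A methylation level is the share of reads at covered CpG sites that carry the methyl group, and in a bulk line a few fully methylated copies and many sparsely methylated ones cannot be told apart. A read also counts as methylated where bisulfite failed to convert it, and no conversion rate was computed here: the study used spiked-in phage DNA for that check, which was not analysed here.

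In mm10, with GENCODE annotation, Dnmt1 lies on the minus strand at chr9:20907209-20959888, Dnmt3a on the plus strand at chr12:3806007-3914443 and Dnmt3b on the plus strand at chr2:153649450-153687730. Dnmt3l lies at chr10:78041947-78063622 and Uhrf1 at chr17:56303321-56323486, both on the plus strand. Tet1 lies at chr10:62804570-62908996, Tet2 at chr3:133463679-133545139 and Tet3 at chr6:83362373-83459084, all on the minus strand, and Tdg at chr10:82629828-82650799 on the plus strand. The number of CpG sites followed ranged from 365 in Dnmt3l to 1691 in Dnmt3a.

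Depth differed between lines. The lines held 16224222 to 36029921 reads over CpG sites and covered 1030180 to 10717789 sites. WT set a line 2 stood apart, with the fewest covered sites and 15.7 reads per covered site, against 2.55 to 5.18 in the other lines. In that line only 11 to 92 body sites per gene were covered, and of the sites in these genes with at least 10 reads 7.57% (14 of 185) held both methylated and unmethylated reads, against 16.5% to 44.1% in the other lines. The comparisons with set a are therefore also given without line 1 or line 2 and on the sites covered in all 4 lines. The methylated share of all reads was 34.1% and 35.4% in the DNMT3A lines, 10.5% to 16.0% in the WT, N656I and N779A lines of DNMT3B, and 6.18% and 7.49% in the K777A lines.

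The promoters of the machinery genes were almost free of methylation. RefSeq (GRCm38.p6) places 16 promoter windows of 300 bases on the 9 genes, and 11 windows of 8 genes had at least 100 reads over the 12 lines. All 11 were below 2%, between 0.247% and 1.04% methylated when the lines were pooled. In single lines, where a window can hold few reads, they reached at most 25.0%. Low levels at promoters were common: 75.2% of the 15598 windows of all genes with that many reads were below 2%, with a median of 0.768%. The following windows are shown because each marks a different arrangement of CpG sites around a start, with every CpG in capitals, read 5′ to 3′ on the strand of the gene.
Dnmt3b, chr2:153649199-153649498, plus strand: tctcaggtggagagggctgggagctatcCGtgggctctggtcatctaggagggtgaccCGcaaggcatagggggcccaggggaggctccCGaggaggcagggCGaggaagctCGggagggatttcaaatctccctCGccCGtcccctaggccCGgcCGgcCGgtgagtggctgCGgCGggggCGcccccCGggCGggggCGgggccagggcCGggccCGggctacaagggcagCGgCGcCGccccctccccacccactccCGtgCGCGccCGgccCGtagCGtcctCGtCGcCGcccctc
Dnmt1, chr9:20952574-20952873, minus strand: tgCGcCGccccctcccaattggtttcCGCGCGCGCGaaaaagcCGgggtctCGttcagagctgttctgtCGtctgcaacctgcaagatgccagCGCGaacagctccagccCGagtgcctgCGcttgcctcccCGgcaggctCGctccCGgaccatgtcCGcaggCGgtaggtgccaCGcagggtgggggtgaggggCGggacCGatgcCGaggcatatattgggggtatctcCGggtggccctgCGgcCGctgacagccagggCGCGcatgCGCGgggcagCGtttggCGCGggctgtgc
Tet1, chr10:62887275-62887574, minus strand: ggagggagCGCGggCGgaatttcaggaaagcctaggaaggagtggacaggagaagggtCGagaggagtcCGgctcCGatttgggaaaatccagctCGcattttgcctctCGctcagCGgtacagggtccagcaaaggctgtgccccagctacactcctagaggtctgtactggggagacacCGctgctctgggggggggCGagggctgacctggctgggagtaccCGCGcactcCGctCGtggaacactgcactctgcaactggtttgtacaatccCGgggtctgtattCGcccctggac
Dnmt3l, chr10:78049592-78049891, plus strand: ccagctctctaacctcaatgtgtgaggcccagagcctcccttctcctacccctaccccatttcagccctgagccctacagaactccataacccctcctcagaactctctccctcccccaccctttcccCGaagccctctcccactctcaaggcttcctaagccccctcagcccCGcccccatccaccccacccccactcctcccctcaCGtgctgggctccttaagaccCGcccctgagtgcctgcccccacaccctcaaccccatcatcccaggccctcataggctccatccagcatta
The Dnmt3b window holds 30 CpG sites, and 0.679% of its 884 reads were methylated. The Dnmt1 window lies 7265 bp inside the annotated gene, holds 33 CpG sites and was 1.03% methylated over 1655 reads. The Tet1 window lies 21672 bp inside the annotated gene, holds 17 CpG sites and was 0.561% methylated over 713 reads. The Dnmt3l window differs from these in holding only 4 CpG sites, as few as or fewer than which are found in 38.0% of the 32851 promoters. Only 1 of these 4 sites was read in any line, and 0 of its 63 reads were methylated.

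At the annotated gene start the members fell into groups that follow the density of CpG sites. A site was called CpG-dense where at least 12 CpG sites lie within 200 bp. Dnmt3a, Dnmt3b, Uhrf1, Tet2 and Tdg have dense sites within 1 kb of their start (77 of 105 sites in Uhrf1 and 118 of 130 in Tet2, for example), whereas Dnmt1, Dnmt3l, Tet1 and Tet3 have none. The start regions of the former were read at 0% to 2.29% (Dnmt3a), 0% to 3.18% (Dnmt3b), 0% to 8.25% (Uhrf1), 0% to 2.47% (Tet2) and 0% to 1.32% (Tdg). In every line with reads these starts lay below the body of the same gene.

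The start region of Dnmt3b was at 1.08% and 3.18% in the DNMT3A lines, 1.65% and 0% in WT set a, 1.11% and 0.37% with N656I, 0.61% and 0.55% in WT set b, 0.69% and 0.49% with K777A, and 0.68% and 0.77% with N779A. The highest of these 12 values is a DNMT3A line, and the body of the gene in that line stood at 47.5%. Averaged over lines, the start minus the body was -18.1 percentage points in Dnmt3b, -12.6 in Dnmt3a and -16.2 in Tet2, below in 12 of 12 lines each (exact sign-flip permutation test over lines, two-sided, p = 0.000488, which is the smallest that 12 lines can give, adjusted p = 0.00136 over 19671 genes). In Uhrf1 and Tdg the difference was -17.1 and -21.3 points, below in 11 of 11 lines (exact permutation p = 0.000977, adjusted p = 0.00194). A start below the body was the rule in this table, with 64.1% of genes called so and 1.56% called the other way, so the 5 of 9 members are not set apart by it. With the dense sites left out, the difference was -14.3 points in Dnmt3b, -18.9 in Dnmt3a, -15.3 in Tet2 and -21.5 in Tdg, each still called. Uhrf1 was still called at -12.3 points, but its start then lay below the body in 9 of 11 lines (exact permutation adjusted p = 0.0199). The start of Dnmt3a holds only 12 sites that are not dense, with 3 to 36 reads in each of the 11 lines that covered them. All 5 stayed called when any 1 line was left out.

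**Figure D1:**
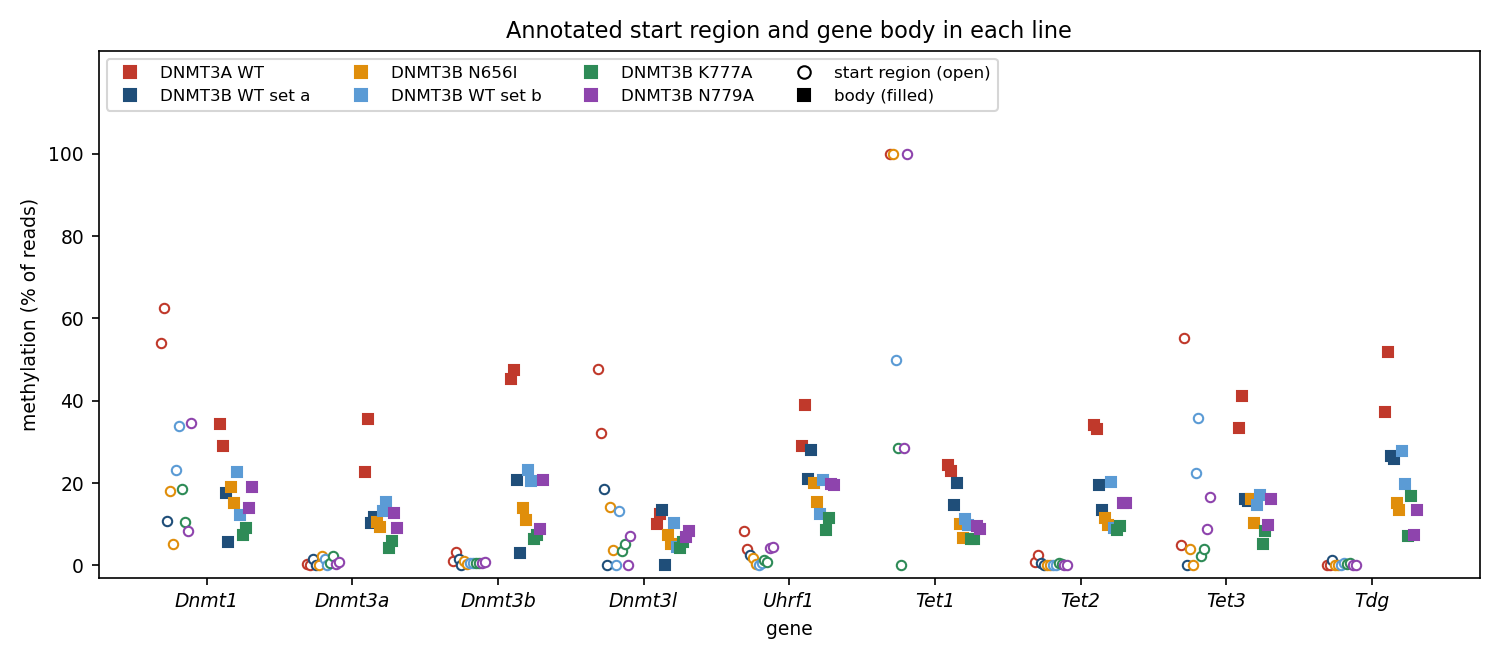
Methylation of the start region (open circles, within 1 kb of the annotated start) and of the body (filled squares) of each gene, in percent of reads, with 1 symbol per line and colours for the 6 groups. The start regions of Dnmt3a, Dnmt3b, Uhrf1, Tet2 and Tdg lie between 0% and 8.25% and below the bodies, and those of Dnmt1, Dnmt3l, Tet1 and Tet3 spread upwards, Tet1 being read in 7 lines only.

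The 4 members without a dense site at the annotated start were methylated there to varying degrees. Dnmt1, the maintenance enzyme, was at 54.1% and 62.5% in the DNMT3A lines, 10.8% in WT set a line 1 (line 2 had no read), 18.1% and 5.26% with N656I, 23.1% and 34.0% in WT set b, 18.5% and 10.6% with K777A, and 8.33% and 34.5% with N779A, over 2 to 19 sites per line. Both DNMT3A lines lay above all DNMT3B lines at this start. Dnmt3l was at 47.7% and 32.3% in the DNMT3A lines, above the 0% to 18.5% of the 10 DNMT3B lines. Tet3 was at 5% and 55.2% in the DNMT3A lines and at 0% to 35.7% in the 9 DNMT3B lines with reads, so the groups overlap.

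Dnmt1, Dnmt3l and Tet3 did not pass the test of start against body (mean differences of 7.26, 4.74 and -3.11 points, exact permutation adjusted p = 0.162, 0.335 and 0.548). Tet1, the most abundant TET enzyme of ES cells, had reads near its annotated start in only 7 lines, over 1 to 7 sites and 1 to 17 reads. There the start was above the body by a mean of 47.4 ± 38.5 points (SD, n = 7; exact permutation p = 0.0313, adjusted p = 0.0477). The values at this start rest on those few reads. The call was lost when any of 6 of the 7 lines was left out (exact permutation adjusted p = 0.0911 to 0.0924). With 6 lines the smallest p that test can give is 0.0313, so this loss does not show what carries the call. With dense sites left out, of which this start has none, the exact permutation p stayed at 0.0313 and the adjusted p was 0.0518. Across all genes with at least 10 covered start sites, starts without a dense site were below 5% methylation in 10.8% and 13.0% of cases in the DNMT3A lines and in 30.6% to 59.1% in the DNMT3B lines. Starts with a dense site were below that level in 79.8% to 97.3% of cases.

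The members whose first annotated start was methylated have further annotated starts inside the gene, and most of those were close to free of methylation. Dnmt1-201, 6909 bp into the gene (chr9:20952979), has 47 dense sites among 75 and was at 0% to 2.80% in the 11 lines with reads, below the body in 11 of 11 (exact permutation p = 0.000977, not adjusted here or for the other transcripts). In the DNMT3A lines it was at 0.36% and 1.67%, against 54.1% and 62.5% at the annotated gene start. The 2 inner starts of Tet3, Tet3-203 (162 of 174 sites dense) and Tet3-202 (38 of 86), were at 0% to 1.65% and 0% to 8.24%, below the body in 12 of 12 lines. Tet1-206 was at 0% to 24.1%, the highest value being DNMT3A line 1, and lay below the body in 12 of 12 lines, whereas Tet1-201 was at 0% to 54.5% and below it in 6 of 12 (exact permutation p = 0.949).

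Dnmt3l-201, whose promoter is printed above, was low without being dense. It lies 7895 bp into the gene and has 0 dense sites among 42, and 6 of its 914 reads over all lines were methylated. It was at 1.05% and 0% in the DNMT3A lines, 0% in both lines of WT set a, N656I and WT set b, 2.99% and 1.01% with K777A, and 1.48% and 0% with N779A. The 0% of WT set a line 2 rests on 3 reads at 1 site, and that of N656I line 2 on 18 reads at 11 sites. Dnmt3l-201 lay below the body in 11 of 12 lines (exact permutation p = 0.000977), the exception being WT set a line 2, where both were at 0%. Dnmt3l-202, also without dense sites, was at 0% to 50.0% over 1 to 12 sites. In Dnmt3a the inner start Dnmt3a-205, 85721 bp into the gene, was at 4.3% and 14.4% in the DNMT3A lines and at 0% to 6.36% in the DNMT3B lines, below the body in 12 of 12 lines. Dnmt3a-201, at the 5′ end of the gene, stayed between 0.288% and 0.939%.

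**Figure D2:**
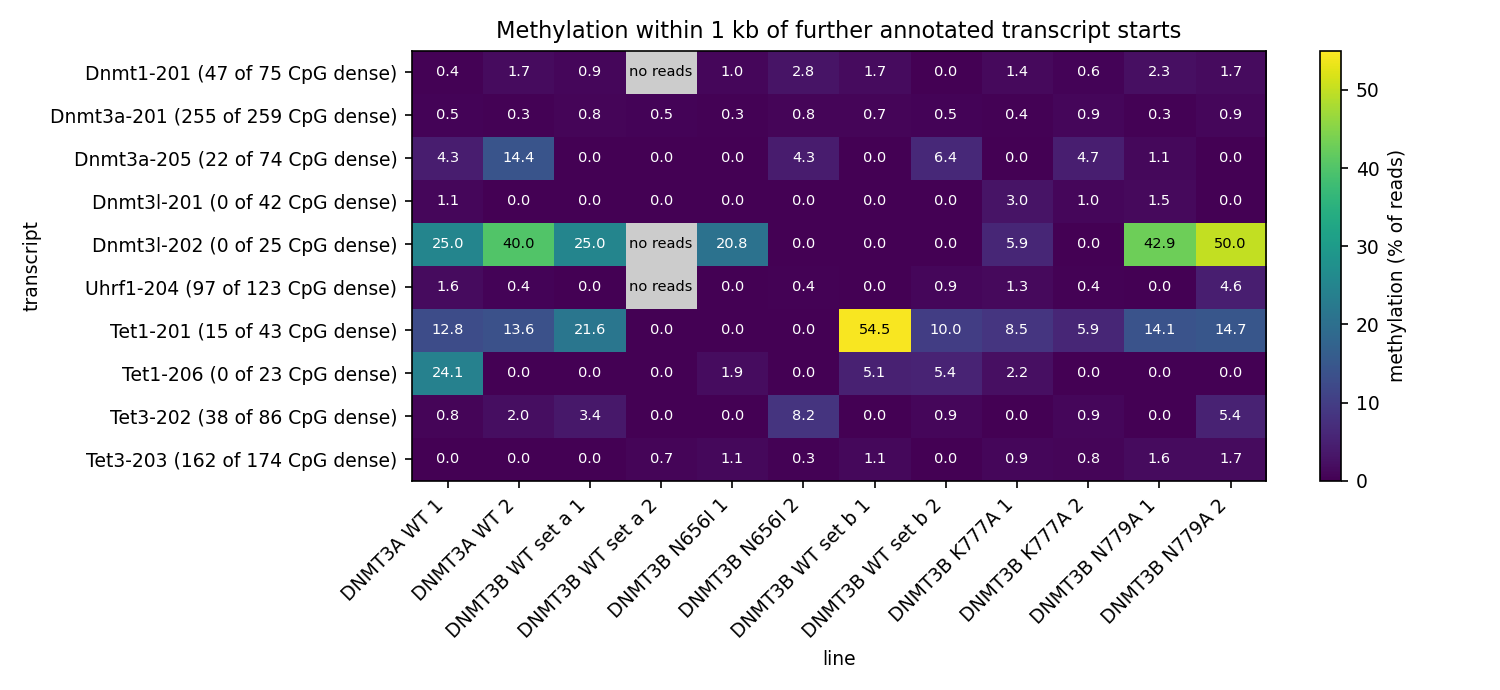
Methylation within 1 kb of each further annotated transcript start, in percent of reads (colour and printed value), with transcripts in rows, lines in columns and the number of CpG-dense sites beside each name. Grey marks lines without reads. Dnmt3a-201 and Tet3-203 stay below 2% in all lines, and Tet1-201 reaches 54.5% in WT set b line 1.

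With the 9 genes pooled, methylation was lowest around the start and higher with distance. Within the first 0.5 kb it was between 0% and 1.75% in all 12 lines. Between 1 and 3 kb upstream it was 46.9% and 41.1% in the DNMT3A lines, and 4.9% to 22.7% in the DNMT3B lines. Between 30 and 120 kb downstream, a stretch that only the longer genes reach, it was 38.8% and 41.0% in the DNMT3A lines, 8.40% and 9.68% with K777A and 14.1% to 21.9% in the other DNMT3B lines. The K777A lines were thus the lowest there, and the DNMT3A lines the highest.

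**Figure D3:**
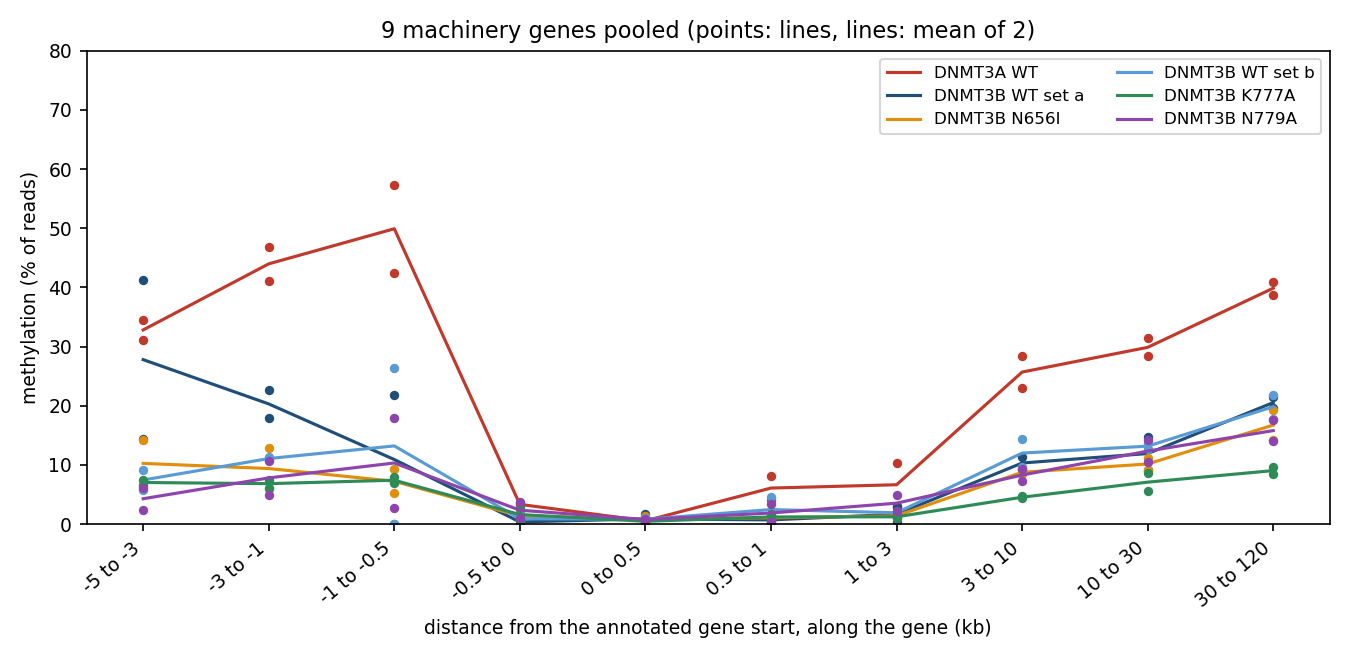
Methylation of the 9 genes pooled, in percent of reads (vertical axis), by distance from the annotated gene start in kb (horizontal axis, bins of unequal width), with points for lines and a line through the mean of the 2 lines of each group. All groups reach their lowest levels around the start (0% to 1.75% in the first 0.5 kb), with DNMT3A highest and K777A lowest beyond 30 kb.

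Body methylation, from 1 kb inside the gene to its end, is given first for the DNA methyltransferases. Dnmt1 was at 34.3% and 28.9% in the DNMT3A lines, 17.6% and 5.69% in WT set a, 19.1% and 15.2% with N656I, 22.8% and 12.2% in WT set b, 7.51% and 9.15% with K777A, and 13.9% and 19.1% with N779A. Dnmt3a was at 22.7% and 35.5% in the DNMT3A lines, 10.4% and 11.7% in WT set a, 10.5% and 9.25% with N656I, 13.2% and 15.3% in WT set b, 4.36% and 5.93% with K777A, and 12.6% and 9.08% with N779A. In both genes the DNMT3A lines lay above all 10 DNMT3B lines. In Dnmt3a the K777A lines lay below all others, and in Dnmt1 they lay below all but WT set a line 2. Dnmt3b had the highest mean of all members in the DNMT3A lines, at 45.2% and 47.5%, and it stood at 20.8% and 3.03% in WT set a, 14.0% and 11.2% with N656I, 23.2% and 20.6% in WT set b, 6.38% and 7.39% with K777A, and 8.88% and 20.8% with N779A. The 3.03% of WT set a line 2 rests on 12 covered sites.

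The partners of these enzymes, Dnmt3l and Uhrf1, differed in level, with Uhrf1 the higher in all 12 lines. Dnmt3l had the lowest mean of all members in every group, at 10.1% and 12.5% in the DNMT3A lines, 13.6% and 0% in WT set a, 7.29% and 5.3% with N656I, 10.3% and 4.55% in WT set b, 4.33% and 5.69% with K777A, and 7.02% and 8.33% with N779A. It is the single member in which the DNMT3A lines did not lie above set a. Uhrf1 was at 29.0% and 39.0% in the DNMT3A lines, 20.9% and 28.2% in WT set a, 19.9% and 15.3% with N656I, 12.5% and 20.7% in WT set b, 8.56% and 11.6% with K777A, and 19.7% and 19.6% with N779A. Ranked among all genes measured in a line, the body of Dnmt3l had a median percentile of 17.0 over the 12 lines (0 to 29.6) and that of Uhrf1 77.8 (21.95 to 92.2), so the ranges overlap. They came nearest in WT set b line 1, at 28.6 and 38.0.

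Among the demethylation genes, Tet1 had the lowest and Tdg the highest median rank. Tet1 was at 24.4% and 23.0% in the DNMT3A lines, 14.6% and 19.96% in WT set a, 10.2% and 6.65% with N656I, 11.2% and 9.73% in WT set b, 6.39% and 6.54% with K777A, and 9.57% and 8.8% with N779A. Tet2 was at 34.2% and 33.1%, 19.5% and 13.4%, 11.5% and 9.9%, 20.4% and 8.98%, 8.63% and 9.6%, and 15.2% and 15.2% in the same order of groups. In Tet1 the DNMT3A, WT set a and K777A lines did not overlap one another, while in Tet2 WT set b line 2 fell among the K777A lines. Tet3 was at 33.3% and 41.1%, 16.1% and 15.7%, 16.1% and 10.3%, 14.7% and 17.0%, 5.32% and 8.41%, and 9.9% and 16.2%. Tdg was at 37.2% and 51.8%, 26.5% and 25.8%, 15.2% and 13.5%, 27.8% and 19.7%, 7.27% and 16.9%, and 7.5% and 13.4%. The median percentiles were 29.3 for Tet1, 53.0 for Tet2, 51 for Tet3 and 72.8 for Tdg, beside 33.0 for Dnmt3a, 57.9 for Dnmt3b and 60.6 for Dnmt1. Each of these 7 genes changed rank widely between lines, Tet3 the least (31.1 to 67.3) and Tdg the most (22.7 to 98.5). The ranks of the 9 genes spread over most of the range of all genes.

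**Figure D4:**
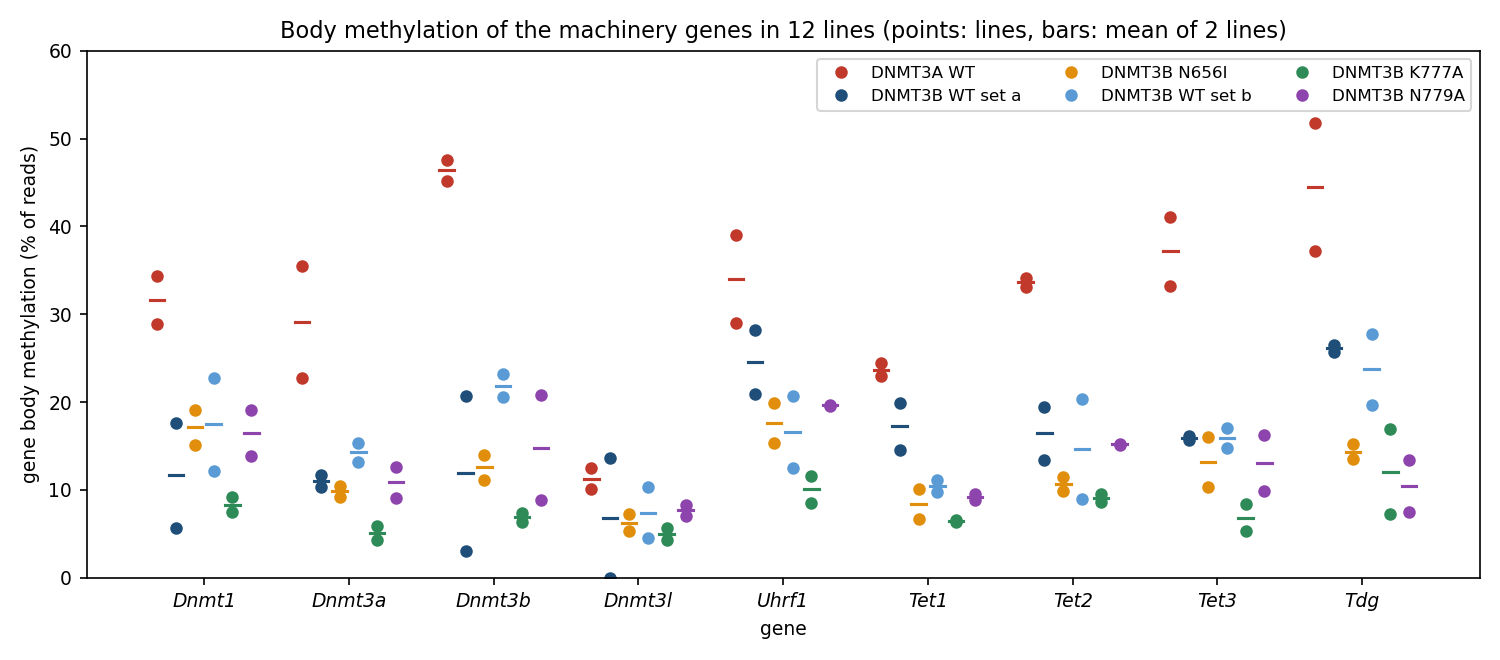
Body methylation of each gene in percent of reads, with points for the 2 lines of each group and bars for their mean. DNMT3A lines (red) lie highest in all genes but Dnmt3l, and the 2 lines of WT set a lie far apart in Dnmt1, Dnmt3b and Dnmt3l.

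Dense sites inside the genes were mostly low. They were at 0.266% to 1.29% in Dnmt3a (236 sites in the body), at 0% to 2.99% in Dnmt1 and at 0% to 4% in Tet1, and at 0.654% to 12.9% in Tet3. In the 10 lines with reads they were at 0% to 4.55% in Dnmt3l (24 sites) and at 0% to 4.17% in Uhrf1 (21 sites). The 16 dense sites of the Tdg body were read only in N779A line 2, where 2 of 10 reads were methylated, and Dnmt3b has none in its body. The other body sites were at 6.52% to 45.5% in Dnmt3a and at 7.02% to 27.5% in Tet1. Exonic sites of the Dnmt3a body were at 22.7% and 59.6% in the DNMT3A lines, and intronic sites at 22.7% and 31.8%. The DNMT3A lines thus differed more in the exons of Dnmt3a than in its introns.

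DNMT3A against DNMT3B (set a) asks how the enzymes differ when either is the only one present. Bodies were more methylated in the DNMT3A lines. The difference was 34.5 points in Dnmt3b (46.4% ± 1.63 against 11.9% ± 12.5, mean ± SD, n = 2), 21.3 in Tet3 (37.2% ± 5.54 against 15.9% ± 0.309) and 17.2 in Tet2 (33.6% ± 0.76 against 16.4% ± 4.29). Dnmt1 stood at 31.6% ± 3.82 against 11.7% ± 8.46. The difference was 18.3 points in Tdg, 18.1 in Dnmt3a, 9.46 in Uhrf1, 6.44 in Tet1 and 4.47 in Dnmt3l. With 1 line left out at a time, it ran from 25.6 to 43.3 points in Dnmt3b, 17.3 to 25.2 in Tet3, 14.2 to 20.2 in Tet2 and 14.0 to 25.9 in Dnmt1. The other members moved more. Without DNMT3A line 2 the difference was 11.7 points in Dnmt3a, 11.03 in Tdg and 4.5 in Uhrf1, and without line 1 it was 14.4 in Uhrf1. Without WT set a line 1 it was 3.75 points in Tet1, 5.85 in Uhrf1 and 11.3 in Dnmt3l, and without line 2 it turned to -2.33 in Dnmt3l, the single change of direction. Both DNMT3A lines lay above both set a lines in 8 of 9 members, which is near the 90.4% of all genes that did so, and in 0 members below (0.0671% of genes). The median difference of the members was 18.1 points and that of 10426 genes 22.3. With 2 lines against 2 an exact permutation test cannot give less than 0.33. Against all 4 WT lines of DNMT3B 8 of 9 members lay above, near the 89.2% of genes with enough sites in all 6 lines, and the smallest exact permutation p is 0.13. On the sites covered in all 4 lines, 4 to 49 per gene, 6 of 9 members lay above, against 60.7% of genes with such a site, and Tet1 differed by -2.33 points over 40 sites. Dnmt1 and Uhrf1 differed there by 43.0 and 37.1 points over 13 and 5 sites. Dnmt3l and Tdg differed by 9.46 and 8.93 points over 5 and 4 sites, with overlapping lines.

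To ask which genes differ beyond the higher level of DNMT3A lines as a whole, the log2 odds of methylation were centred on the median gene of each line, which removes a shift of 1.80 (log2 odds). After centring, limma called 0 of 10426 bodies (0%), although 314 had an unadjusted p under 0.05, and edgeR also called 0. The members moved to both sides: Dnmt3b by 1.37 ± 0.89 (log2 odds, SE), Tet1 by -1.21 ± 0.56 and Uhrf1 by -1.14 ± 0.46 (adjusted p = 0.776 each, limma). Their median was -0.16, beside -0.03 for all genes. Without centring, 53.9% of genes were called higher and 0.00959% lower, the higher ones with Tet3 (1.64 ± 0.38, adjusted p = 0.0253) and Tet2 (1.38 ± 0.43, adjusted p = 0.0468) among them. The other 7 members did not pass, Dnmt3b being the nearest at 3.17 (adjusted p = 0.0511, limma). At the start only Dnmt3b had enough covered sites in all 4 lines, with a centred change of 0.54 ± 1.55, and limma called 0 of 4450 starts (0%; 322 at an unadjusted p under 0.05, and 2 called by edgeR). Without WT set a line 2, limma called 0 bodies. Without line 1 it called 5041, with Dnmt3b (2.62) higher and Uhrf1 (-1.62) and Tet1 (-1.69) lower, but line 2 alone then stood for WT, at its few covered sites. Dnmt3l was called as well, but its body had 0 methylated reads in line 2, so the size of its change depends on the 0.5 added to each count and is not given, here or in the comparisons below.

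N656I, a substitution in the catalytic domain of DNMT3B, was compared with the same set a lines, so these values share their WT lines with the comparison above. Tet1, Tet2, Uhrf1 and Tdg were lower in both N656I lines than in both WT lines, with mean differences of -8.87, -5.72, -6.92 and -11.8 points (Tdg 14.3% ± 1.19 against 26.2% ± 0.559, n = 2). These 4 of 9 members compare with 32% of all genes, and 0 members lay above in both lines, as 4.04% of genes did. Dnmt1 was 5.48 points higher on average, with overlapping lines, and Dnmt3a, Dnmt3b, Dnmt3l and Tet3 differed by -1.16, 0.699, -0.5 and -2.73 points, overlapping too. With 1 line left out at a time, Tdg stayed between -12.7 and -10.97 points and Tet1 between -11.6 and -6.19, while the others depended on single lines. Without WT set a line 2 Dnmt1 differed by -0.496, Dnmt3b by -8.16, Dnmt3l by -7.29, Uhrf1 by -3.31 and Tet2 by -8.75 points, and without line 1 by 11.5, 9.56, 6.29, -10.5 and -2.69 in the same order. Without N656I line 2 Tet3 differed by 0.132, Dnmt3l by 0.494, Dnmt3b by 2.14 and Uhrf1 by -4.61 points. Without N656I line 1 Tet3 differed by -5.59, Dnmt3l by -1.49, Dnmt3b by -0.741 and Dnmt1 by 3.5 points, and Dnmt3a ran from -1.83 to -0.485 over the 4 lines left out. On the sites covered in all 4 lines only Tet1 stayed lower in both lines, at 13.5% and 2.73% against 19.4% and 23.9% over 33 sites, and 19% of genes did so on such sites. There Uhrf1 and Tet2 turned to 1.77 and 4.82 points over 5 and 11 sites, 5 of 9 members were higher on average, and the median was 0.98 points. Tdg differed there by -5.1 points over 4 sites, with overlapping lines (13.0% and 8.33% against 0% and 31.6%). limma called 0 of 10431 bodies (0%, 171 at an unadjusted p under 0.05, edgeR 0) and 0 of 4456 starts (0%, 231, edgeR 0). The smallest p among members was that of Tdg, with a centred change of -0.81 ± 0.35 (log2 odds, SE, adjusted p = 0.844). Without WT set a line 2, limma called 0 bodies. Without line 1 the sparse line 2 alone stood for WT, at its few covered sites. The centred change was then -0.99 in Tdg, -1.40 in Tet1, 1.82 in Dnmt1 and 2.11 in Dnmt3b (log2 odds).

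K777A, a change of a lysine in the loop that reads the target site, was compared with WT set b. All 9 bodies were lower on average. The difference was -15.0 points in Dnmt3b (6.89% ± 0.717 against 21.9% ± 1.8, n = 2), -11.6 in Tdg, -9.15 in Dnmt1, -9.13 in Dnmt3a (5.15% ± 1.11 against 14.3% ± 1.52) and -9.01 in Tet3. It was -6.51 in Uhrf1, -5.56 in Tet2, -3.99 in Tet1 and -2.42 in Dnmt3l. With 1 line left out at a time, Dnmt3b ran from -16.3 to -13.7 points, Dnmt3a from -10.2 to -8.05, Tet3 from -10.6 to -7.47 and Tet1 from -4.71 to -3.27. The other 5 depended more on single lines. Without WT set b line 1 Tet2 and Dnmt3l turned to 0.132 and 0.465 points, Dnmt1 differed by -3.84, Uhrf1 by -10.6 and Tdg by -7.6. Without its line 2 Tet2 differed by -11.2, Dnmt3l by -5.31, Dnmt1 by -14.5 and Uhrf1 by -2.42 points, and without K777A line 1 Tdg differed by -6.83. Both mutant lines lay below both WT lines in 7 of 9 members, the exceptions being Tet2 and Dnmt3l, and in 72.7% of all genes. No member lay above in both lines, against 1.89% of genes. The median difference was -9.01 points for the members and -6.85 for 15572 genes. On shared sites (8 to 154 per gene) 6 of 9 members lay below, against 45.5% of genes, and Dnmt3b again differed most, by -18.5 points over 33 sites.

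After centring, which removes a shift of -1.04 log2 odds, limma called 0 of 15572 bodies (0%, 1063 at an unadjusted p under 0.05, edgeR 0). Dnmt3b was lower by more than the median gene, with a change of -0.88 ± 0.26 (unadjusted p = 0.018, limma adjusted p = 0.708), which does not pass. The members' median was -0.12, against 0.02 over all genes. Without centring no gene was called, and Dnmt3b came nearest among members at -1.92 ± 0.31 (adjusted p = 0.0513, limma), ahead of Dnmt3a (-1.63, adjusted p = 0.0536) and Tet3 (-1.39, adjusted p = 0.0575). Start regions of Dnmt3a, Dnmt3b and Uhrf1 changed by 1.07, -0.04 and 0.61 (log2 odds), and that of Tet2 was at 0.54% and 0.29% with K777A and at 0% in both WT lines, with 0 of 10995 starts called by limma (0%, 658 at an unadjusted p under 0.05, edgeR 0).

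N779A, a change of a nearby asparagine, was compared with the same set b lines. Tdg differed by -13.3 points (10.4% ± 4.16 against 23.7% ± 5.72, n = 2), Dnmt3b by -7.06 with overlapping lines, and Dnmt3a by -3.41. Dnmt1, Tet1 and Tet3 differed by -0.982, -1.26 and -2.8 points, and Uhrf1, Tet2 and Dnmt3l by 3.06, 0.508 and 0.248. With 1 line left out at a time, Tdg stayed between -17.3 and -9.24 points. Dnmt3b was at -1.1 and Dnmt3a at -5.19 without N779A line 1, and at -13.0 and -1.64 without line 2. Tet1 ran from -1.98 to -0.545 points, Dnmt1 from -6.29 to 4.33, Dnmt3l from -2.64 to 3.13, Uhrf1 from -1.04 to 7.15 and Tet2 from -5.18 to 6.2, with the ends of each range without WT set b line 1 or line 2. Tet3 ran from -5.97 to 0.372, with the ends without N779A line 2 or line 1. In Tdg, Dnmt3a and Tet1 neither N779A line reached either WT line, 3 of 9 members lower against 26.9% of all genes, and 0 of 9 were higher in both lines against 10.3%, with a median of -1.26 points for members and -1.55 for 15510 genes. After centring, Tdg changed by -1.25 ± 0.39 (unadjusted p = 0.022, limma adjusted p = 0.898), and limma called 0 of 15510 bodies (0%, 826 at an unadjusted p under 0.05, edgeR 0). Only 1 Tdg body site was covered in all 4 lines, so that value cannot be repeated on shared sites, where only Dnmt3b was lower in both lines (19 sites), as were 16.2% of genes. Of the starts, Uhrf1 was at 4.31% and 4.5% with N779A against 0% and 0.66% in WT set b, a change of 1.93 ± 1.49 (log2 odds, SE, limma adjusted p = 0.942), and Tet2 was at 0% in all 4 lines. limma called 0 of 10689 starts (0%, 579 at an unadjusted p under 0.05), and edgeR called 2.

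The WT lines of sets a and b carry the same enzyme, so their difference includes the spread between lines of 1 genotype. It cannot be told apart from a difference between the sets, and set a holds the sparse line 2. Uhrf1 and Tet1 were higher in set a, by 7.95 and 6.82 points, and Dnmt3a differed by -3.25, each without overlap. With overlapping lines, Dnmt3b differed by -10.0 points, Dnmt1 by -5.81, and Tdg, Tet2, Tet3 and Dnmt3l by 2.42, 1.76, 0.0508 and -0.637, each of the latter 4 turning direction with 1 line left out. Dnmt3b was at -1.13 points without WT set a line 2 and at -18.9 without line 1. Dnmt1 was at 0.17 without set a line 2 and -0.497 without set b line 1, and at -11.8 and -11.1 without the other line of either set. Uhrf1 was at 4.34 points without set a line 2, 3.86 without set b line 1 and 12.05 without set b line 2, and Tet1 at 4.14 without set a line 2. Dnmt3a stayed between -4.32 and -2.17. These 2 of 9 higher and 1 of 9 lower compare with 26.8% and 7.41% of all genes. On the sites covered in all 4 lines, 3 to 35 per gene, 0 members were higher without overlap and Dnmt3a alone was lower (-1.79 points over 25 sites), against 14.7% and 9.87% of genes. There Tet1 differed by 7.15 points over 25 sites, Uhrf1 by 0.36 over 3 and Dnmt3b by -2.49 over 6, each with overlapping lines. The 6.82 points by which Tet1 differed between WT sets may be set beside its -8.87 points between N656I and set a and its 6.44 points between DNMT3A and set a. limma called 0 of 10392 bodies (0%, 231 at an unadjusted p under 0.05, edgeR 0), 0 without WT set a line 2, and 1699 without line 1, with Dnmt3b (-2.94) and Dnmt3l lower.

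The lines also differed by the bases next to the CpG in these genes. Sites in all 9 genes were pooled by the base before and after the CpG, for the classes in which these bases pair with each other. CCGG sites of the members were at 1.73% and 1.85% with K777A against 16.5% and 19.4% in WT set b, a ratio of 0.0995, and at 14.9% and 15.2% with N779A. Over all sites of the table the K777A lines were at 1.78% and 1.82%. CCGG is also the site cut by MspI, which was used to fragment the DNA.

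Of the 4 classes, GCGC sites showed the highest ratio between the enzymes: they were at 16.9% and 21.8% in the DNMT3A lines and at 4.41% and 1.23% in WT set a, a mean 6.86 times as high, or 4.39 times without WT set a line 2, an alternative chosen after seeing the data. Both DNMT3A lines also lay above both set a lines at TCGA (mean 29.5% against 11.25%) and CCGG sites (27.7% against 20.7%). At ACGT sites (35.9% against 25.1%) the lines overlapped. With N656I GCGC sites were at 1.59% and 0.902%. The members' GCGC sites lay below those of the whole table in the DNMT3A lines (30.1% and 33.5%). ACGT sites were at 7.53% and 6.23% with N656I, below 13.7% and 36.5% in WT set a, but the latter value comes from 17 covered sites of line 2, and over all sites that line was at 13.1%. TCGA sites were at 10.0% and 10.5% with K777A and 12.2% and 11.6% with N779A, below 24.9% and 21.6% in WT set b, and over all sites both mutants lay below WT set b as well. These classes pool sites of 9 genes and were compared as values without a test.

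**Figure D5:**
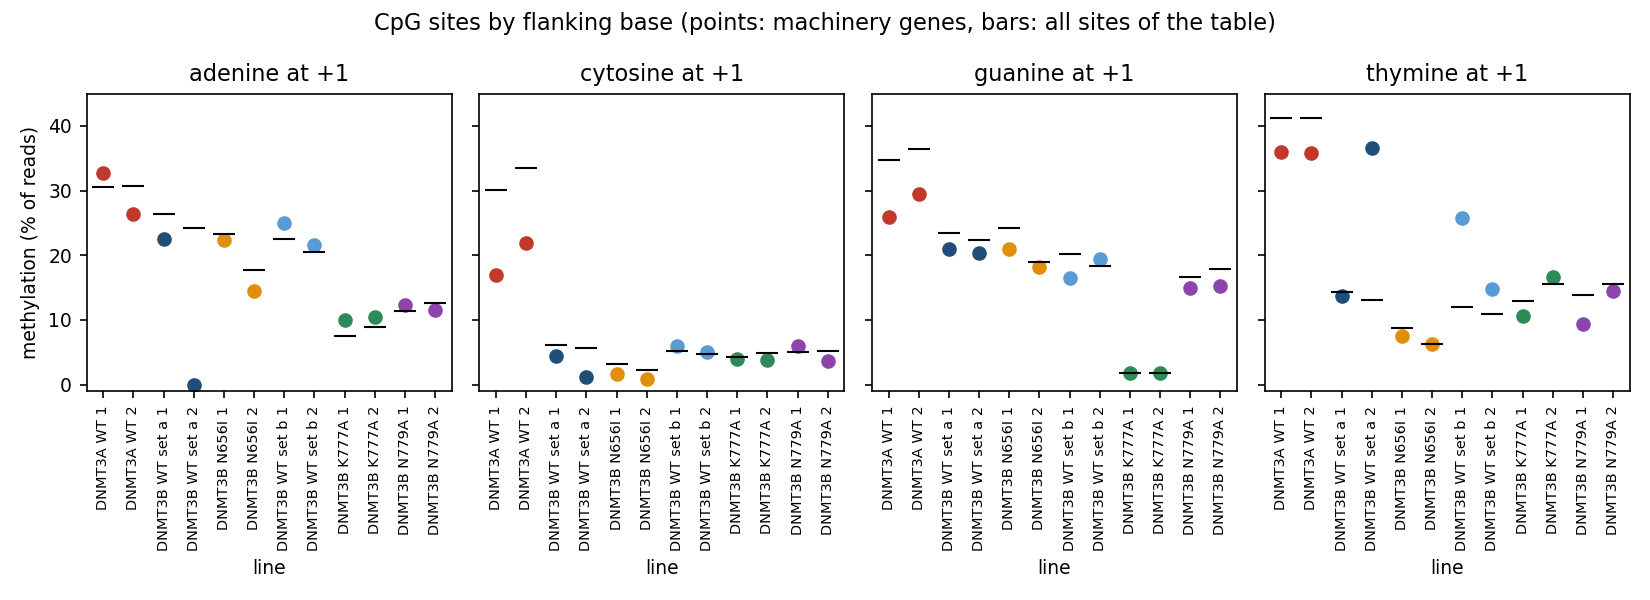
Methylation of the machinery genes' CpG sites (points) and of all sites in the table (bars), in percent of reads, for each line. The panels are the palindromic classes TCGA (adenine after the CpG), GCGC (cytosine), CCGG (guanine) and ACGT (thymine). K777A lines lie below 2% in the panel with guanine, and DNMT3A lines stand highest in that with cytosine.

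Single sites show how uneven the levels are. The following sites are printed with 10 bases on either side, on the plus strand of mm10, with the CpG in capitals, because each was read deeply enough in the lines of a comparison.
Dnmt3a, chr12:3912355-3912356, last exon: ctggagtaggCGctgagaccaa
Tet3, chr6:83365284-83365285, exon: tgcatagttaCGtcttaaatac
Tet1, chr10:62856770-62856771, intron: tggcactatcCGagcaaagacg
Tet1, chr10:62856780-62856781, intron: cgagcaaagaCGgggaccagga
Dnmt3b, chr2:153649257-153649258, promoter: gagggtgaccCGcaaggcatag
The Dnmt3a site was methylated in 5 of 6 and 8 of 8 reads in the DNMT3A lines and in 0 of 6 and 0 of 31 in WT set a, and none of the reads of the 6 further lines that covered it was methylated. The Tet3 site was methylated in 0 of 8 and 0 of 10 reads with N656I, and in 4 of 10 and 15 of 19 in WT set a. The pair of Tet1 sites lies 10 bp apart, and in WT set a line 2 the first was methylated in 0 of 58 reads and the second in 58 of 58. That is the line with 15.7 reads per covered site and few sites of mixed state, and how many molecules these reads stand for was not tested. In WT set b line 1 the first was methylated in 6 of 6 reads and the second in 0 of 6, and line 2 showed the opposite, 0 of 8 and 6 of 8. Neighbouring sites thus held different states in 1 line, and the state of a site differed between lines of 1 group. The Dnmt3b promoter site, covered in all 12 lines, had 0 methylated reads in each of them. Reads carry no molecular identifiers, so these counts need not be separate molecules, and sites were chosen for their differences, with no test.

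Of 46 further genes of the pathway (readers of methylated DNA, glycosylases and repair enzymes, suppliers of the methyl donor and chromatin partners), 29 bodies could be tested in the comparisons with set a and 40 in those with set b. limma called 0 higher and 0 lower in all 5 comparisons of bodies and, for the 15 (set a) or 35 (set b) starts tested, in the 4 comparisons other than that of the WT sets, where starts were not fitted. At an unadjusted p under 0.05 there were 1, 0, 2, 3 and 0 bodies for DNMT3A, N656I, K777A, N779A and the WT sets, and 2, 1, 1 and 1 starts for the former 4. The median centred change of the bodies was 0.13, 0.32, 0.06, 0.08 and -0.50 (log2 odds), beside medians of all genes of -0.03, -0.01, 0.02, -0.00 and -0.01.

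Dnmt1, Dnmt3a and Dnmt3b are the genes disrupted in these cells, and reads still fell on most of each gene. Of their CpG sites 73.5%, 74.9% and 76.4% were covered in at least 1 line, against 53.7% (Tdg) to 82.4% (Tet1) in the other members. The longest stretches with no read in any line were 1729 bp in Dnmt3b, chr2:153676817-153678545 with 30 CpG sites, exons 19 and 20 in full, most of exon 21 and the end of exon 18, the rest of which was read, and 1566 bp in Dnmt1, chr9:20910881-20912446 with 42 CpG sites and exons 33 to 35, counting merged annotated exons from the 5′ end. In Dnmt3a the longest was 1104 bp, chr12:3835355-3836458, with 8 CpG sites and no exon. Of the exons with a CpG site, 13 of 37 in Dnmt1 (exons 32 to 37 among them), 2 of 29 in Dnmt3a (exons 27 and 28) and 6 of 23 in Dnmt3b had no read in any line, against 0 of 14 (Tet3) to 4 of 16 (Dnmt3l) in the other members. Unread stretches of at least 1000 bp also occur in genes that were not disrupted, with 1680 bp in Tdg and 1319 bp in Tet3, and the part of the knockouts in the unread stretches was not tested. The exons removed in these cells are not given in the sources used here. Reads over Dnmt3a exons were 18.4 and 12.3 per 1000000 reads in the DNMT3A lines and 10.3 to 31.4 in the DNMT3B lines other than WT set a line 2 (4.44), so the ranges overlap.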

How the data were processed

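Genomic DNA of 12 TKO lines was cut with MspI, BfaI and MseI and sequenced after bisulfite treatment. Per the labels and the submitters' processing notes, reads were trimmed with cutadapt (1.12) and aligned to mm10 and called with Bismark (0.18.1) and Bowtie (1.2). The deposited table gives methylated and total read counts per CpG site and line, without molecular identifiers, so that amplified copies count as reads. Sites at other cytosines were not analysed here.

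Columns were assigned to lines by the sample labels. Counts were summed with Python (3.11.15) per protein-coding gene (GENCODE M21) over the start region (1 kb on either side of the start) and the body (from 1 kb inside to the end). Promoters and sequences came from RefSeq (GRCm38.p6) and the GRCm38 genome. Genes with at least 10 covered sites in each of 4 lines were fitted with limma (3.58.1, variance trend, R 4.3.3) on log2((methylated + 0.5)/(unmethylated + 0.5)), centred on the median gene of each line, with Benjamini-Hochberg adjustment over all genes tested and a threshold of 0.05. The planned adjustment of the start-against-body test over the members alone was replaced by adjustment over all 19671 genes. Group values are means ± SD of 2 lines. On simulated data the body fit of DNMT3A against DNMT3B (10426 genes) recovered 82 of 100 genes changed by 2 log2 units and 100 changed by 4, with 18 false calls, and that of K777A (15572 genes) 38 and 98, with 3 false calls. For starts it recovered 0 at 2 units, so absent calls there say little. How the simulated spread compares with that of the sparse WT set a line 2 was not tested. In the measured DNMT3A body fit the SE was 0.36 in Tet2 and 0.89 in Dnmt3b (log2 odds). Without centring, a change of 3.17 in Dnmt3b did not pass (limma adjusted p = 0.0511). The absence of body calls therefore does not show that changes of 2 log2 units are absent.

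All 9 members are named with their values. Sites were named if covered in all 12 lines with the most reads, or with at least 5 reads in the 4 lines of a comparison and the largest difference. The members and the list of 46 further genes were chosen with earlier results of these data known. Alternatives were edgeR (4.0.16), no centring, other minimums of sites and reads, a start of 500 bp, dense or very deep sites left out, sites covered in all 4 lines, each line left out and a replicate block.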

Additional observations from a re-analysis of the deposited data

How the results depend on the processing

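With 2 lines a group and few covered sites per gene, single-gene differences were measured coarsely, and WT set a line 2 limits every comparison with set a. In 122 of 136 fits limma or edgeR called 0 genes, and 886 recomputed values of single members held 99 changes of sign, 2 of them in a value called in an alternative. Without centring, 5623 bodies were called between DNMT3A and DNMT3B, and Tet2 (-0.42 when centred) and Tet3 (-0.16) were called higher, at 1.38 and 1.64, since the shift of the whole line is then part of the change. edgeR called 2 starts between DNMT3A and DNMT3B and 2 between N779A and WT. Leaving out 1 line gave 0 to 5041 called bodies for DNMT3A against DNMT3B, 0 to 4187 for N656I and 0 to 1699 for the WT sets. The highest counts came without WT set a line 1, which leaves the sparse line 2, taken to vary like the other group. For starts the ranges were 0 to 90 for DNMT3A against DNMT3B (90 without WT set a line 1 and 28 without line 2), 0 to 16 for N656I (without line 1 of set a), and 0 to 5 for K777A and 0 to 2 for N779A (both without WT set b line 2). The WT sets gave 15 calls without WT set b line 2 and 2 without its line 1, and DNMT3A against DNMT3B gave 1 body without DNMT3A line 1. On the sites covered in all 4 lines the members lower in both mutant lines fell from 4 to 1 for N656I and from 3 to 1 for N779A. The members' GCGC level in DNMT3A lines was 6.86 times that in set a, and 4.39 times without WT set a line 2. The causes were not tested. The replicate numbers do not pair the lines (correlation of deviations between lines of 1 number, -0.0194 to 0.0167), and with the replicate block limma called 0 genes in all 9 comparisons of bodies and starts.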

Other observations

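Upstream of the machinery genes, 5 to 1 kb before the annotated start, the DNMT3A lines were at 56.2% and 61.4% for Dnmt1 and the DNMT3B lines at 0% to 16.8%. For Dnmt3b the same stretch was at 48.6% and 44.4% in the DNMT3A lines and at 0% to 15.8% in the 9 DNMT3B lines with reads. For Tet1 it was at 41.1% and 52.5% in the DNMT3A lines and at 97.2% in WT set a line 2, against 0% to 40.0% in the other DNMT3B lines. The 97.2% rests on 36 reads over 3 covered sites in the line with the most reads per covered site (15.7), and how many molecules they stand for was not tested. These stretches hold 28 to 60 CpG sites, with 14 to 168 reads in each line that covered them.

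The exons of the Dnmt3b body were at 25.0% in WT set a line 2 and its introns at 0%, although the exons there had only 16 reads. Uhrf1 showed the opposite in that line, with exons at 0% and introns at 40.8%. Its exon reads there fell only on exon 16 (76 reads) and exon 10 (10 reads).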
